A study of Mus musculus with 10 samples.

Results

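The glutathione peroxidase family was followed as 6 genes, Gpx1, Gpx2, Gpx3, Gpx4, Gpx7 and Gpx8, picked by gene symbol from a table of 15624 genes. All 6 had enough reads to be tested, among 13006 genes tested in all. The libraries came from epithelium of established pancreatic ductal adenocarcinoma in KPFSR mice, cut from frozen sections by laser capture microdissection. There were 6 libraries from animals given tamoxifen and 4 from animals given corn oil, the vehicle. Replicate numbers are not in the labels and follow the deposited order within each group. From knowledge of the model, and not from the labels, all animals carry, among other alleles, mutant Trp53, FlpO driven by Pdx1, floxed Slc7a11 and CreERT2 expressed from the Rosa26 locus. Tamoxifen then activates Cre, which removes part of Slc7a11 in any cell type that expresses CreERT2, so the deletion is not restricted to the epithelium. The sources used here give no age, sex or dose. Read from Xist and Ddx3y, corn oil replicates 1 and 4 and tamoxifen replicate 6 were female and the other libraries were not, so sex was uneven between the groups. The labels do not tie libraries to animals. P-values therefore measure the spread between these libraries, and are too small where libraries of a group share an animal.

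Glutathione peroxidases use glutathione to reduce hydrogen peroxide and lipid peroxides to water and alcohols. Most mammalian members carry selenocysteine, an amino acid read from a UGA codon that otherwise ends translation, at the active site. Gpx1 is the widely expressed cytosolic and mitochondrial enzyme, Gpx2 the enzyme of gastrointestinal epithelium, Gpx3 the secreted plasma enzyme, and Gpx4 the one that reduces peroxidised phospholipids within membranes and so guards cells against ferroptosis. Gpx7 and Gpx8 lie in the endoplasmic reticulum, where they pass oxidising equivalents from peroxide to protein disulfide isomerases. Glutathione needs cysteine, and Slc7a11 is the subunit of the exchanger that imports its oxidised form, cystine.

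The codon at the active site divides the family into selenoenzymes and cysteine enzymes. The coding sequence around it is shown for each member because the 4 abundant genes and the 2 scarce ones fall on different sides of that division. Each line holds 27 bases of the coding strand, 5′ to 3′, from the longest GENCODE M21 coding transcript on GRCm38, with the active-site codon in capitals.
Gpx1: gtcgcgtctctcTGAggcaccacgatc
Gpx2: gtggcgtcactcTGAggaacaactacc
Gpx3: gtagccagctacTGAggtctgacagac
Gpx4: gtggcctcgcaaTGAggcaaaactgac
Gpx7: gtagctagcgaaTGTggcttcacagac
Gpx8: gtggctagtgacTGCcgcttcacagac
In Gpx1, Gpx2, Gpx3 and Gpx4 the codon is TGA, annotated as selenocysteine, at codons 47, 40, 73 and 129. It is the 1 in-frame TGA before the stop codon in each of these 4 coding sequences. In Gpx7 and Gpx8 the same place, codons 56 and 79, holds TGT and TGC, the cysteine codons, and there is no in-frame TGA before the stop.

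The genes lie on 6 chromosomes of GRCm38. Read from the plus strand are Gpx1 at chr9:108338903-108340343, Gpx3 at chr11:54902453-54910377 and Gpx4 at chr10:80047166-80056439. Read from the minus strand are Gpx2 at chr12:76792333-76795554, Gpx7 at chr4:108400390-108406961 and Gpx8 at chr13:113042753-113046410. Gpx2 overlaps Fntb, and Gpx8 overlaps Cdc20b, on the opposite strand, but neither pair has exon bases in common in this annotation. Gpx2 has a processed pseudogene, Gpx2-ps1 on chromosome 7, whose 571 bases match the Gpx2 transcript at 98.2%. The table lists that pseudogene with 0 to 16 reads in tamoxifen libraries and 14 to 76 in corn oil libraries, against 263 to 4491 and 10038 to 56470 reads of Gpx2. The sources used here do not say how reads that match both places were handled.

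Total counts ran from 6899347 to 19462115 in tamoxifen libraries and from 16473902 to 36132316 in corn oil libraries. The ranges overlapped, but the tamoxifen libraries were shallower by median, 17201144 against 25133364.5. Tamoxifen replicates 1 to 3 were more alike than any other libraries, with a root mean square difference of 0.760 to 1.14 in log2 CPM between them, against 1.32 or more for every other pair. Counts of no 2 libraries agreed within sampling noise (lowest mean chi-square for a gene, 25.04), and all 10 were kept. Slc7a11, the targeted gene, stood at 5.90 to 19.3 normalised CPM in tamoxifen libraries, median 10.6, and at 38.9, 26.1, 40.1 and 23.2 in corn oil replicates 1 to 4. The groups did not overlap, and the log2 fold change was -1.41 (SE 0.44, edgeR adjusted p 0.311), over a gene total that may include exons outside the deleted part. All 12 epithelial markers, among them keratins and junction genes, had reads in every library. They summed to 15069 to 27168 normalised CPM in tamoxifen libraries and 16894 to 33677 in corn oil libraries, with 11 of 12 below 0 in log2 fold change, 0 called in edgeR and a median of -0.61.

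In edgeR's quasi-likelihood test of tamoxifen against corn oil, 0 of the 6 peroxidase genes passed a false discovery rate of 0.05. Across all tested genes 5 passed, which is 0.0384%, of which 1 was higher with tamoxifen (0.00769%) and 4 were lower (0.0308%). The 1 higher gene was Trp53, at 149 ± 82.9 normalised CPM with tamoxifen (SD, n = 6) and 7.59 ± 1.47 with corn oil (SD, n = 4). Its log2 fold change was 4.30 (SE 0.61, edgeR adjusted p 0.0362). The part of Trp53 in the differences between the groups was not tested. The fitted log2 fold change was below 0 for Gpx1 and Gpx2, 2 of 6 members, against 50.7% of all tested genes. At an unadjusted p under 0.05 there was 1 member, Gpx2, against 1262 of all tested genes, or 9.7%. DESeq2 called 1 member, Gpx2, where it called 1.87% of all genes. Limma voom with sample weights called 2, Gpx1 and Gpx2, where it called 9.62% of all genes. That method gave tamoxifen replicates 2 and 3, of the similar trio, its highest weights, 5.49 and 3.87. The groups did not overlap for 1 member, Gpx2, against 420 of all tested genes, or 3.23%, of which 254, or 1.95% of those tested, were lower like Gpx2.

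**Figure D1:**
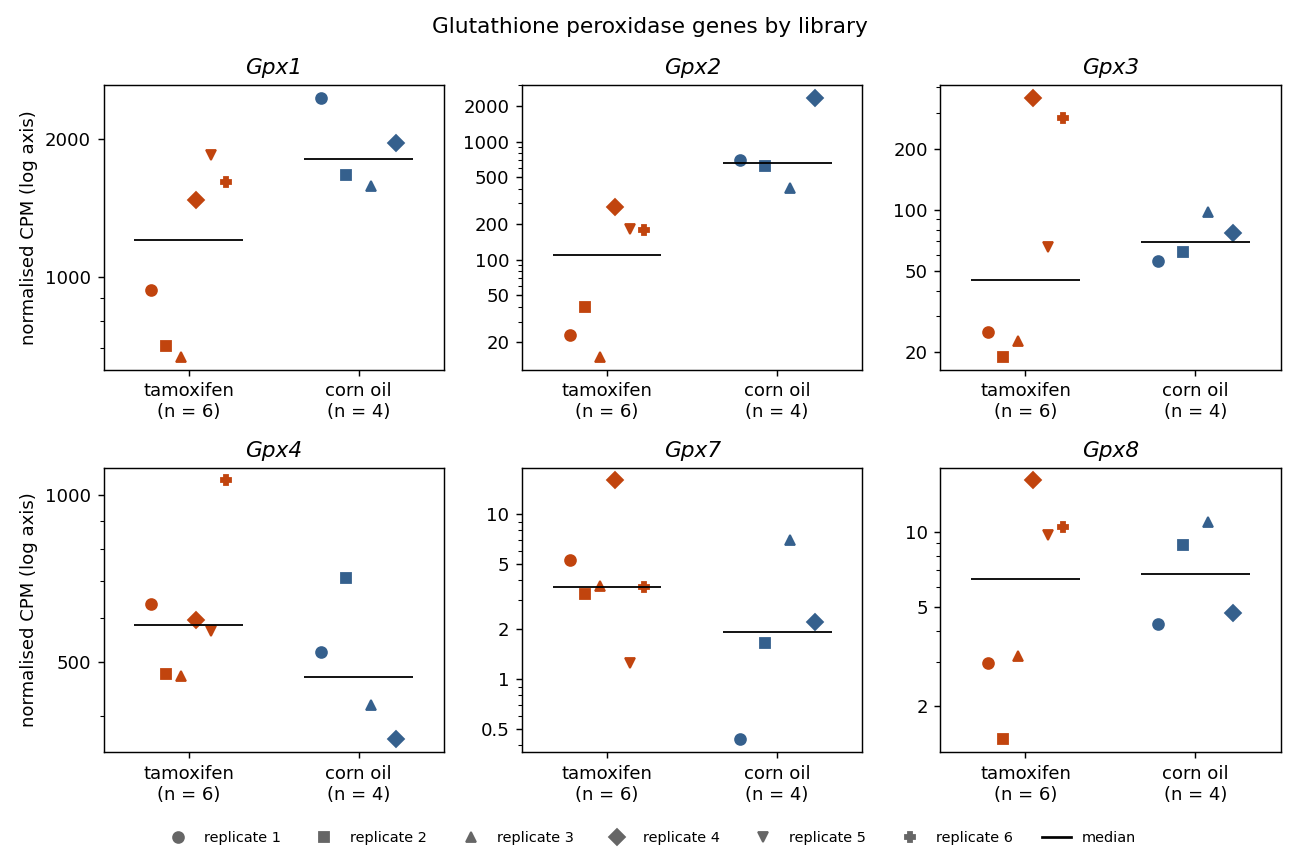
Normalised CPM (log axis) of each of the 6 genes in every library, tamoxifen on the left and corn oil on the right, with a bar at each group's median. All 6 tamoxifen libraries lie below all 4 corn oil libraries for Gpx2, while the groups overlap for the other genes, and tamoxifen replicates 1 to 3 sit lowest for Gpx1, Gpx2, Gpx3 and Gpx8.

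Gpx2, the gastrointestinal peroxidase and a target of the transcription factor NRF2, was the member that differed most between the groups. It stood at 15.1 to 282 normalised CPM in tamoxifen libraries, median 110.1. In corn oil replicates 1 to 4 it stood at 699, 618, 405 and 2348. Every tamoxifen library lay below every corn oil library, with the highest tamoxifen value, 282 in replicate 4, under the lowest corn oil value, 405 in replicate 3. The means were 121 ± 110.3 (SD, n = 6) with tamoxifen and 1017 ± 896 (SD, n = 4) with corn oil, and the mean with corn oil was 8.43 times that with tamoxifen. The log2 fold change was -3.08 (SE 0.78), with an edgeR adjusted p of 0.199, and Gpx2 ranked 110 of 13006 genes by p. DESeq2 gave -3.07 (adjusted p 0.00289) and limma voom -4.54 (adjusted p 0.000922), each of which called the gene.

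The size of that difference moved with single libraries. Tamoxifen replicates 1, 2 and 3 held 22.9, 39.9 and 15.1 normalised CPM, while replicates 4, 5 and 6 held 282, 184 and 180.4. Corn oil replicate 4 was more than 3 times as high as any other corn oil library. Without corn oil replicate 4 the log2 fold change was -2.25 (edgeR adjusted p 0.414), and without tamoxifen replicates 1 to 3 it was -2.24 (edgeR adjusted p 0.844). With sex as a covariate it was -2.49 (edgeR adjusted p 0.361). It stayed below 0 in all 23 alternatives, from -4.54 to -2.24. Over these alternatives the adjusted p ran from 0.000922 in limma voom to 0.844.

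The ratio of Gpx2 to Gpx1 reads within a library does not depend on scaling between libraries. It was 0.0226 to 0.192 in tamoxifen libraries, median 0.0782. In corn oil replicates 1 to 4 it was 0.285, 0.371, 0.256 and 1.20, so the groups did not overlap. Corn oil replicate 4 was the 1 library of the 10 with more reads of Gpx2 than of Gpx1.

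Markers of gastric and intestinal epithelium were lower in the same libraries as Gpx2. Their summed level was 640.2 to 1927 normalised CPM in tamoxifen libraries, median 966, and 13962 to 21586 in corn oil libraries. Of 11 tested markers 11 had a log2 fold change below 0, and 1, the trefoil peptide gene Tff1, fell (log2 fold change -4.53, SE 0.66, edgeR adjusted p 0.0362). The median over the 11 was -3.42. Gkn3, a gastrokine, averaged 87.2 ± 114 normalised CPM with tamoxifen (SD, n = 6) and 6297 ± 2930 with corn oil (SD, n = 4). Tff1 averaged 241 ± 230.1 with tamoxifen (SD, n = 6) and 5583 ± 3022 with corn oil (SD, n = 4). Among tamoxifen libraries, replicates 1 to 3 were lowest for both Gpx2 and the marker sum, and replicates 4 to 6 were highest for both. Within corn oil the order differed. Replicate 3 had the lowest Gpx2, 405, and the highest marker sum, 21586. Replicate 1 had the lowest sum, 13962, with Gpx2 at 699, and replicate 4, highest for Gpx2 at 2348, had a sum of 21013. The part of gastric and intestinal epithelium in the level of Gpx2 was not tested. In bulk tissue fewer cells of a type and less RNA per cell cannot be told apart.

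Gpx1, the cytosolic peroxidase that removes hydrogen peroxide, was the most abundant member. It stood at 669 to 1840.0 normalised CPM in tamoxifen libraries, median 1204, and at 2454, 1665, 1578 and 1954 in corn oil replicates 1 to 4. Tamoxifen replicates 1 to 3, at 669 to 935, and replicate 4, at 1473, lay below every corn oil library, whereas tamoxifen replicates 5 and 6, at 1840.0 and 1611, lay within the corn oil range. The means were 1206 ± 499.7 (SD, n = 6) with tamoxifen and 1913 ± 395 (SD, n = 4) with corn oil. The log2 fold change was -0.67 (SE 0.32, edgeR adjusted p 0.545). It was -0.22 without tamoxifen replicates 1 to 3 and -0.50 with sex as a covariate. In limma voom it was -1.31 (adjusted p 0.0178, the 1 call of this gene), and it was below 0 in all 23 alternatives. Epithelial markers, with their median of -0.61, were also lower in most cases, and summed to 15069 to 17363 in tamoxifen replicates 1 to 3 and to 23749 to 27168 in tamoxifen replicates 4 to 6. Their part in the level of Gpx1 was not tested.

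Gpx4, the phospholipid hydroperoxide peroxidase, varied less than any other member within the tamoxifen group. It stood at 472 to 1063 normalised CPM in tamoxifen libraries, median 583, and at 521, 711, 419 and 363 in corn oil replicates 1 to 4. The groups overlapped, and tamoxifen replicate 6, the shallowest library, was the highest of the 10. The means were 636 ± 219 (SD, n = 6) with tamoxifen and 503.5 ± 153 (SD, n = 4) with corn oil. The log2 fold change was 0.34 (SE 0.29, edgeR adjusted p 0.788), and it lay between 0.077 and 0.57 in the 23 alternatives. A difference of this size was within the spread between libraries.

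Gpx3, the secreted peroxidase, was about as uneven with tamoxifen as Gpx2, whose range there was 18.7-fold. Gpx3 stood at 18.9 to 356 normalised CPM in tamoxifen libraries, median 45.2, an 18.8-fold range. In corn oil replicates 1 to 4 it stood at 55.8, 62.1, 97.1 and 77.0, a 1.74-fold range. Tamoxifen libraries lay on both sides of corn oil: replicates 1 to 3, at 18.9 to 24.9, were below every corn oil library, replicates 4 and 6, at 356 and 284, were above every one, and replicate 5, at 65.4, was among them. The means were 129 ± 151 (SD, n = 6) with tamoxifen and 73.0 ± 18.4 (SD, n = 4) with corn oil. The log2 fold change was 0.81 (SE 0.80, edgeR adjusted p 0.821). Its sign depended on which tamoxifen libraries were counted. The log2 fold change was 1.69 without tamoxifen replicates 1 to 3 and -1.15 without tamoxifen replicates 4 and 6, 0.18 without replicate 4 and 0.42 without replicate 6.

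Gpx7 and Gpx8, the peroxidases of the endoplasmic reticulum, were scarce. Gpx7 had 22 to 254 reads in tamoxifen libraries and 7, 54, 172 and 53 reads in corn oil replicates 1 to 4. It stood at 1.24 to 16.0 normalised CPM with tamoxifen, median 3.62, and at 0.431, 1.65, 6.93 and 2.20 with corn oil. The groups overlapped, and 1 library in each, tamoxifen replicate 4 and corn oil replicate 3, was well above the others. The means were 5.49 ± 5.28 (SD, n = 6) with tamoxifen and 2.80 ± 2.85 (SD, n = 4) with corn oil, and the log2 fold change was 0.97 (SE 0.97, edgeR adjusted p 0.827). It was 0.27 without tamoxifen replicate 4, 1.94 without corn oil replicate 3 and 0.25 without tamoxifen replicates 4 and 6.

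Gpx8 had 29 to 256 reads in tamoxifen libraries and 69 to 291 in corn oil libraries. It stood at 1.46 to 16.1 normalised CPM with tamoxifen, median 6.46, and at 4.25, 8.87, 11.0 and 4.70 in corn oil replicates 1 to 4. Tamoxifen replicates 1 to 3, at 1.46 to 3.17, lay below every corn oil library, and tamoxifen replicate 4 lay above every one. The means were 7.31 ± 5.71 (SD, n = 6) with tamoxifen and 7.19 ± 3.26 (SD, n = 4) with corn oil. The log2 fold change was 0.022 (SE 0.76, edgeR adjusted p 0.998) and -0.0098 with upper-quartile scaling, so it had no settled sign.

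Fibroblast markers were highest in tamoxifen replicates 4 and 6, where Gpx3 was also highest. Of 11 tested markers 11 had a log2 fold change above 0 and 0 were called in edgeR, with a median of 0.79. The 12 listed markers include collagens and other matrix genes. They summed to 606 to 2287 normalised CPM in tamoxifen libraries, median 990.2, and to 470.4 to 1036 in corn oil libraries. Tamoxifen replicates 4 and 6 held 1612 and 2287, and tamoxifen replicates 1 to 3 held 979, 606 and 1001, which lies among the corn oil libraries. In corn oil replicate 3, by contrast, the sum was the lowest of all libraries, at 470.4. There Gpx3 at 97.1, Gpx7 at 6.93 and Gpx8 at 11.0 were the highest of the corn oil libraries. Tamoxifen replicate 6, with the highest sum, held Gpx7 at 3.59. Fbln2, the most abundant of the list, averaged 687 ± 357 normalised CPM with tamoxifen (SD, n = 6) and 425 ± 142 with corn oil (SD, n = 4), and the collagen gene Col3a1 averaged 128 ± 85.2 with tamoxifen (SD, n = 6) and 75.97 ± 60.9 with corn oil (SD, n = 4). With the mean log2 level of these markers as a covariate the log2 fold change of Gpx3 was -1.35 (edgeR adjusted p 0.666). That of Gpx7 was 0.025 (edgeR adjusted p 0.997) and that of Gpx8 was -0.99 (edgeR adjusted p 0.838). The same fit moved Gpx2 from -3.08 to -4.23 (edgeR adjusted p 0.0942) and Gpx1 from -0.67 to -0.999 (edgeR adjusted p 0.441). Gpx4 was at 0.34 with and without the covariate. The shift was thus not limited to Gpx3, Gpx7 and Gpx8. Macrophage markers summed to 2351 in tamoxifen replicate 4 and to 834 to 1380 in the other tamoxifen libraries, against 994 to 1498 with corn oil. Of the 10 macrophage markers 2 had a log2 fold change above 0 and 0 were called in edgeR. Highest among them, Cd14 and Lyz2 averaged 783 ± 88.0 and 289 ± 283 with tamoxifen (SD, n = 6), against 405 ± 138 and 388 ± 101 with corn oil (SD, n = 4). The part of either cell type in the levels of Gpx3, Gpx7 and Gpx8 was not tested.

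**Figure D2:**
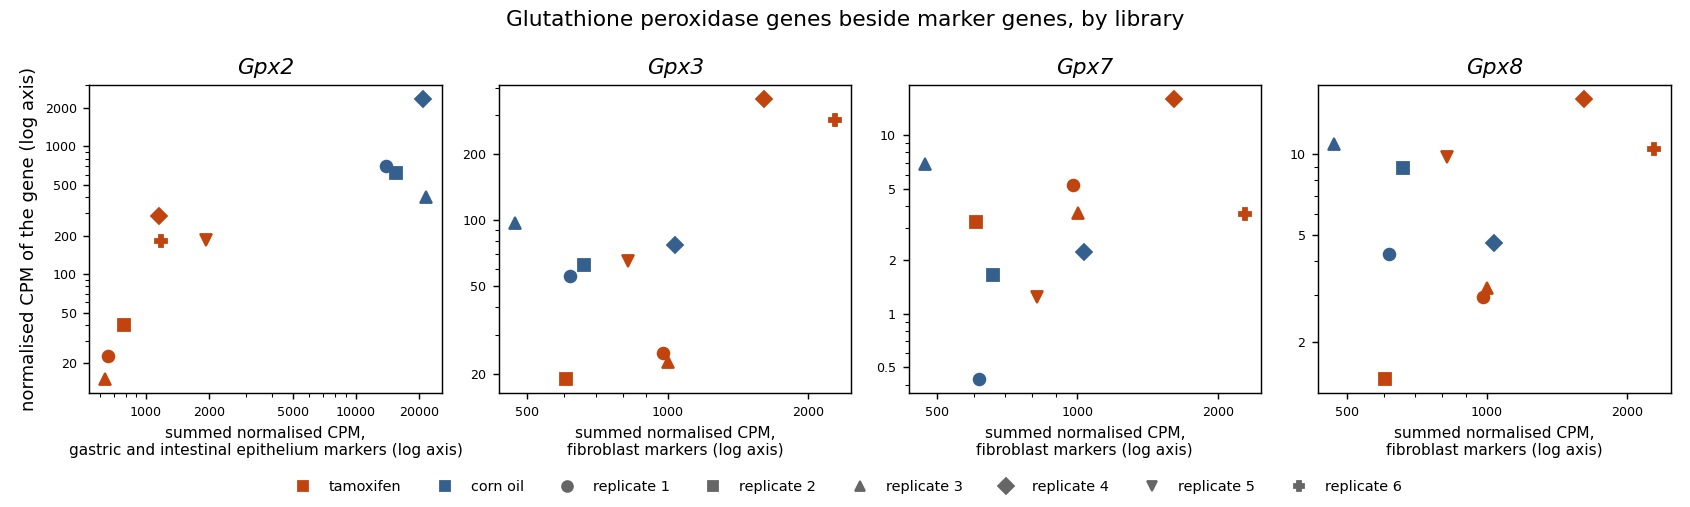
Normalised CPM of Gpx2, Gpx3, Gpx7 and Gpx8 (vertical, log axis) against the summed normalised CPM of a marker list in the same library (horizontal, log axis), with 1 point for each library, coloured by treatment and shaped by replicate. Corn oil libraries lie at the upper right for Gpx2 and the gastric and intestinal list, and tamoxifen replicates 4 and 6 lie at the upper right for Gpx3 and the fibroblast list.

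Markers of 7 other cell types were summed in the same way. In tamoxifen libraries the summed normalised CPM was 5.20 to 129 for neutrophil, 4.92 to 60.4 for endothelial, 33.1 to 86.9 for acinar, 0 to 0.0871 for islet, 11.5 to 30.5 for adipocyte, 0 to 1.09 for erythroid and 63.2 to 203 for hepatocyte markers. In corn oil libraries the same sums were 2.99 to 151, 5.21 to 44.2, 17.2 to 204, 2.54 to 221, 8.58 to 48.2, 0 to 0.369 and 5.90 to 140.3. The insulin gene Ins2 was at 0 in all 6 tamoxifen libraries. Under their listed symbols only 6 of 10 acinar, 3 of 7 adipocyte, 5 of 7 neutrophil and 6 of 7 hepatocyte genes entered these sums. The erythroid sum rests on Alas2 alone, since its other 6 genes were not analysed here under their listed symbols. The haemoglobin gene listed as Beta-s, an older name of Hbb-bs that was looked up after the values were seen, averaged 16.0 ± 12.2 normalised CPM with tamoxifen (SD, n = 6) and 0.852 ± 1.04 with corn oil (SD, n = 4). The groups did not overlap, and its fitted log2 difference was 4.23 (SE 1.34, edgeR adjusted p 0.311).

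**Figure D3:**
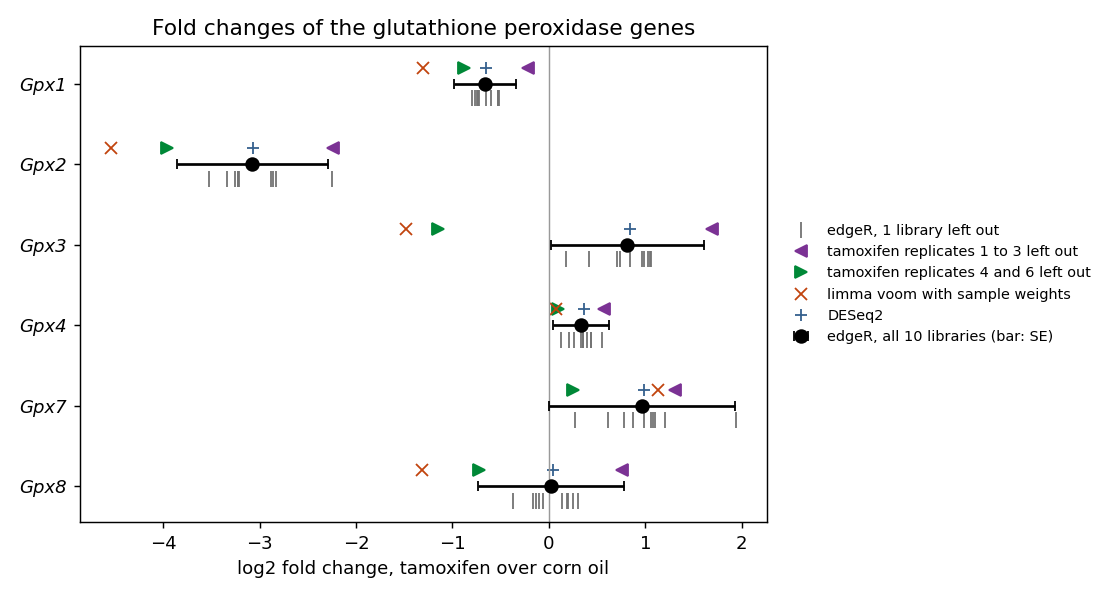
Log2 fold change of each gene, tamoxifen over corn oil, with black points and SE bars for edgeR on all 10 libraries, grey ticks for edgeR with 1 library left out, and coloured marks for other fits. Gpx2 lies between -4.54 and -2.24 under every fit shown, while Gpx3 and Gpx8 have marks on both sides of 0.

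Levels of different genes were compared per kilobase of annotated exon. Gpx1 led with 837 ± 347 normalised CPM per kilobase with tamoxifen (SD, n = 6) and 1327 ± 274 with corn oil (SD, n = 4). That placed it at rank 32 with tamoxifen and rank 22 with corn oil among 14617 genes with a known exon length. Gpx4 followed with 369 ± 127 per kilobase with tamoxifen (SD, n = 6) and 292 ± 88.6 with corn oil (SD, n = 4), at ranks 129 and 194. Gpx2 stood at 37.5 ± 34.2 per kilobase with tamoxifen (SD, n = 6), rank 1612, and at 316 ± 278 with corn oil (SD, n = 4), rank 172. Gpx3 stood at 70.9 ± 83.2 per kilobase with tamoxifen (SD, n = 6) and 40.3 ± 10.1 with corn oil (SD, n = 4). Gpx8 had 6.98 ± 5.45 and Gpx7 4.26 ± 4.10 per kilobase with tamoxifen (SD, n = 6), against 6.87 ± 3.11 and 2.17 ± 2.21 with corn oil (SD, n = 4). By these means the order with tamoxifen was Gpx1, Gpx4, Gpx3, Gpx2, Gpx8, Gpx7, where Gpx3 and Gpx2, and Gpx8 and Gpx7, were closer than their SD. With corn oil it was Gpx1, Gpx2, Gpx4, Gpx3, Gpx8, Gpx7, where Gpx2 and Gpx4 were closer than the SD of Gpx2. By medians Gpx2, at 34.2, stood above Gpx3, at 24.9, with tamoxifen, and Gpx4, at 273, stood above Gpx2, at 204, with corn oil. The exon length of Gpx2 includes a retained intron, 3222 bases against 1067 in its longest coding transcript. On coding transcript length, an alternative added after seeing the data, Gpx2 had 113 ± 103 per kilobase with tamoxifen (SD, n = 6) and 954 ± 839.5 with corn oil (SD, n = 4). Gpx3 then had 80.6 ± 94.6 with tamoxifen (SD, n = 6), below Gpx2, so the order of Gpx2 and Gpx3 with tamoxifen depends on the length used.

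As shares of the summed level of the 6 genes, Gpx1 held the largest part in every library. It took 57.0% to 74.7% with tamoxifen, median 61.4%, and 75.4%, 64.1%, 71.4% and 57.8% in corn oil replicates 1 to 4. Gpx4 took 19.3% to 36.0% with tamoxifen, median 33.1%, and 13.4%, 22.9%, 15.8% and 8.99% with corn oil. The groups overlapped for both genes, with tamoxifen replicates 4 and 5, at 20.6% and 19.3%, below corn oil replicate 2. Gpx2 took 0.616% to 5.21% with tamoxifen, median 2.21%, and 9.61%, 10.6%, 8.19% and 31.1% with corn oil, with no overlap. On coding transcript length the mean share of Gpx2 was 4.84% with tamoxifen and 26.1% with corn oil, and Gpx2 outweighed Gpx1 in corn oil replicate 4, at 49.5% against 41.0%.

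The 2 cysteine enzymes, Gpx7 and Gpx8, together made up 0.496% to 1.65% of the family with tamoxifen and 0.194% to 1.03% with corn oil, so the selenoenzymes held nearly all of it in each library. The whole family took 0.131% to 0.280% of all reads with tamoxifen and 0.248% to 0.454% with corn oil. Per Gpx1 read there were 0.309 to 0.705 Gpx4 reads with tamoxifen, median 0.667, and 0.212, 0.427, 0.265 and 0.186 in corn oil replicates 1 to 4. Tamoxifen replicates 1, 2, 3 and 6 exceeded every corn oil library in that ratio, and tamoxifen replicates 4 and 5 did not.

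**Figure D4:**
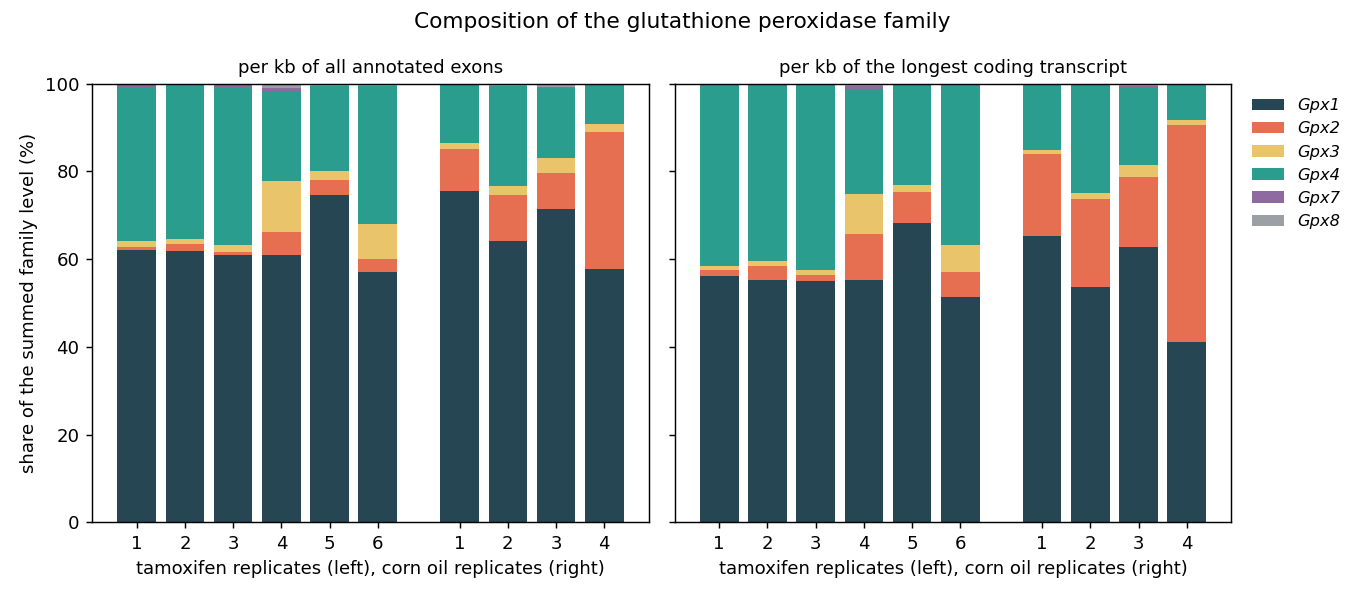
Share of the summed level (%) held by each of the 6 genes in every library, tamoxifen replicates on the left of each panel and corn oil replicates on the right, per kilobase of all annotated exons (left panel) or of the longest coding transcript (right panel). Gpx2 takes 0.616% to 5.21% with tamoxifen and 8.19% to 31.1% with corn oil in the left panel, and Gpx1 with Gpx4 fill most of the rest.

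The genes that act with the peroxidases were counted in 7 lists. Over the 116 tested genes of these lists, edgeR called 0 at the false discovery rate, with 19 at an unadjusted p under 0.05. DESeq2 called 3, Nsun2, Cbr3 and Pdia5, where it called 1.87% of all genes. Limma voom called 16, of which 14 were lower with tamoxifen, where it called 9.62% of all genes. Its calls over all genes were not split by direction. In edgeR the median log2 fold change over all tested genes was -0.01, and 4.43% of them were higher and 5.27% lower at an unadjusted p under 0.05.

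Among genes that make or recycle glutathione, 3 of 17 tested were lower at an unadjusted p under 0.05 and 0 were higher, with a median log2 fold change of -0.15. They included Slc7a11 and Ggct, which cleaves gamma-glutamyl dipeptides, at -2.35 (SE 0.76, edgeR adjusted p 0.318). Ggct averaged 11.0 ± 3.52 normalised CPM with tamoxifen (SD, n = 6) and 56.2 ± 89.2 with corn oil (SD, n = 4), where corn oil replicate 4 held 189.9 and the others 9.54 to 13.1. Of NRF2 targets, antioxidant and detoxification genes, 5 of 28 were lower and 0 higher at that threshold, with a median of -0.31. Cbr3, a carbonyl reductase, averaged 51.8 ± 6.70 normalised CPM with tamoxifen (SD, n = 6) and 166 ± 77.7 with corn oil (SD, n = 4), at a log2 change of -1.68 (SE 0.34, edgeR adjusted p 0.113). Corn oil replicate 4, at 51.2, lay within the tamoxifen range of 45.3 to 61.4, and the other corn oil libraries held 190.9 to 223. The NRF2 and glutathione lists share Slc7a11 and other genes, so their counts are not separate.

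Of the other peroxide-removing enzymes, peroxiredoxins, thioredoxins, catalase and superoxide dismutases, 1 of 16 was higher and 2 were lower at an unadjusted p under 0.05, with a median of -0.07. Prdx5, a peroxiredoxin of mitochondria and peroxisomes, averaged 549 ± 149 normalised CPM with tamoxifen (SD, n = 6) and 309 ± 100.5 with corn oil (SD, n = 4). Its log2 fold change was 0.83 (SE 0.30, edgeR adjusted p 0.367). Srxn1, the sulfiredoxin that restores overoxidised peroxiredoxins, had a log2 change of -1.59 (SE 0.64, edgeR adjusted p 0.433).

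Selenocysteine has to be made on its transfer RNA and inserted at UGA, and 17 genes tied to these steps were tested. At an unadjusted p under 0.05, 3 were higher with tamoxifen and 0 lower, with a median log2 fold change of -0.02. Nsun2, an RNA cytosine methyltransferase that acts on transfer RNAs, averaged 280.0 ± 113 normalised CPM with tamoxifen (SD, n = 6) and 102 ± 33.0 with corn oil (SD, n = 4). Its log2 fold change was 1.46 (SE 0.37, edgeR adjusted p 0.199). Trnau1ap, which binds the selenocysteine transfer RNA, had a log2 change of 0.76 (SE 0.31, edgeR adjusted p 0.446). Of 15 other selenoproteins, 1 was lower and 0 higher at the unadjusted threshold, with a median of 0.08. Selm, selenoprotein M of the endoplasmic reticulum, had a log2 change of -1.14 (SE 0.50, edgeR adjusted p 0.493), and Msrb1, a methionine sulfoxide reductase, one of -0.76 (SE 0.40, edgeR adjusted p 0.585).

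Genes of phospholipid peroxidation and iron, the setting in which Gpx4 acts, had a median log2 fold change of 0.25 over 18 tested. At an unadjusted p under 0.05, 2 were higher and 1 lower. Aifm2, the ferroptosis suppressor that regenerates reduced ubiquinone, averaged 36.2 ± 11.8 normalised CPM with tamoxifen (SD, n = 6) and 19.2 ± 5.89 with corn oil (SD, n = 4), at a log2 change of 0.92 (SE 0.38, edgeR adjusted p 0.451). Vdac2, a channel of the outer mitochondrial membrane, had a log2 change of 0.51 (SE 0.21, edgeR adjusted p 0.448), with no overlap between groups. Of 22 genes of oxidative folding, the setting of Gpx7 and Gpx8, 4 were lower and 0 higher at the unadjusted threshold, with a median of -0.11. Pdia5, a protein disulfide isomerase, averaged 35.6 ± 7.54 normalised CPM with tamoxifen (SD, n = 6) and 102 ± 40.3 with corn oil (SD, n = 4), at a log2 change of -1.53 (SE 0.30, edgeR adjusted p 0.113). Erp44, a chaperone that retains oxidative folding enzymes, had one of -0.56 (SE 0.24, edgeR adjusted p 0.471).

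Profiles were also compared by the root mean square difference of centred log2 CPM over the 10 libraries of both treatments, which differ in depth, among 8763 genes whose mean log2 CPM was 3 or more. Nearest to Gpx2 were Aqp5, a water channel of secretory epithelium, at 0.724, Ttc9 at 0.856 and Acss1, a mitochondrial acetyl-CoA synthetase, at 0.893, against an SD of 2.33 for Gpx2 itself. Nearest to Gpx1 were the histone variant gene H2afv at 0.196, the intramembrane protease gene Sppl2a at 0.255 and Hint2 at 0.265, against an SD of 0.634. Nearest to Gpx4 were Rer1, Fnbp4 and Tex264, at 0.212, 0.213 and 0.218, against an SD of 0.435. Gpx3 had as nearest the collagen gene Col8a1 at 0.555, the immune receptor subunit gene Fcer1g at 0.565 and Atxn1 at 0.586, against an SD of 1.43. For Gpx7 these were Sfrp1, Pim3 and Lrrc8c at 0.650 to 0.708, against an SD of 1.36, and for Gpx8 Rhoq, Pcbp4 and Panx1 at 0.436 to 0.485, against an SD of 1.06.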

How the data were processed

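The deposited file is a single table of raw read counts, 1 row for each gene symbol and 1 column for each of the 10 libraries, made by the authors. Per the labels' protocols, RNA from a Qiagen micro kit was amplified with SMART-seq v4 and tagmented with Nextera XT, which do not mark strand. Per the submitters' processing notes, the tools were bcl2fastq (2.17), STAR (2.5.2b) and featureCounts (1.5.0-p3), and the build was mm10. The annotation and the treatment of multi-mapping reads are not stated there.

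Counts were filtered with filterByExpr, scaled with TMM factors and tested in edgeR 4.0.16 (R 4.3.3) by quasi-likelihood F tests of treatment alone. P-values were adjusted by Benjamini-Hochberg over all 13006 tested genes, at a false discovery rate of 0.05. Each SE is the size of the log2 fold change divided by the square root of F. Normalised CPM uses TMM-scaled library sizes, and the prior count in log2 CPM was 2. This procedure was tested on simulated data with large known changes and independently drawn libraries. Changes smaller than these, and libraries that share an animal, were not simulated. Positions, exon lengths and coding sequences are those of GENCODE M21 (GRCm38, the same assembly as mm10). Alternatives were DESeq2 1.42.0, limma 3.58.1 (voom), other scaling, filters and covariates (fibroblast markers, or sex read from Xist and Ddx3y), and left-out libraries.

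The 6 members and all gene lists were chosen with earlier results of these data known, so no p-value was adjusted over a list alone and no list was tested as a set. Named are all members and Slc7a11. Of each pathway list, where none passed, the 2 lowest p-values among genes averaging a log2 CPM of 3 or more are named, with the 3 nearest profiles of each member at that level and the leading markers of the lists set beside a member. Where a list's 2 genes include Slc7a11 it is named under both. Trp53, Ins2, Alas2, Beta-s and the genes called by DESeq2 were singled out after their values were seen.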

Additional observations from a re-analysis of the deposited data

Results flagged for a closer look

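In 10 of 64 groups of libraries compared, 1 library stood apart from the rest of its group, each time as the highest. The rule's rate of about 1 in 20 is for normally spread, separate values. These were untransformed levels and ratios, and several rest on the same Gpx2 value, so the count cannot be set against that rate. Gpx2 was highest in corn oil replicate 4, at 2348 normalised CPM against 405 to 699 in the other corn oil libraries. Its share of the family was 31.1% there against 8.19% to 10.6%, and its reads per Gpx1 read were 1.20 against 0.256 to 0.371. In the same library the glutathione-cycle gene Ggct stood at 189.9 normalised CPM against 9.54 to 13.1. Gpx4 was highest in tamoxifen replicate 6, at 1063 normalised CPM against 472 to 637 in the other tamoxifen libraries. Gpx7 was highest in tamoxifen replicate 4, at 16.0 normalised CPM against 1.24 to 5.23. Gpx1 took 74.7% of the family in tamoxifen replicate 5 against 57.0% to 62.0% in the others. Srxn1 was also highest in that library, at 54.5 normalised CPM against 4.90 to 17.9. Macrophage markers summed to 2351 normalised CPM in tamoxifen replicate 4 against 834 to 1380, and to 1498 in corn oil replicate 1 against 994 to 1078.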

How the results depend on the processing

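The 4 corn oil and 6 tamoxifen libraries, and 7 to 291 reads of Gpx7 and Gpx8 in each, limit what can be told apart. In edgeR the number of genes past the false discovery rate, 5 of all tested, was 0 to 11 with 1 library left out. It was 0 with sex as a covariate, 0 when the alike tamoxifen replicates 1 to 3 were merged into 1 sample, 0 when these were left out, 77 without tamoxifen replicates 4 and 6, 9 with the fibroblast covariate and 18 at a rate of 0.1, against 243 in DESeq2 and 1251 in limma voom. Gpx members called were 0 in each edgeR alternative, 1 in DESeq2 and 2 in limma voom. There Gpx2 was at -3.07 in DESeq2 and at -4.54 in limma voom, and Gpx1 at -1.31 in limma voom. Slc7a11 was called in limma voom, at -2.08. Genes called in the 7 lists were 3 in DESeq2, 16 in limma voom and 0 to 1 with 1 library left out, the 1 being Cbr3 without corn oil replicate 4. Gpx3 turned to -1.35 with the fibroblast covariate, -1.48 in limma voom and -1.15 without tamoxifen replicates 4 and 6. Gpx8 turned to -0.0098 with upper-quartile scaling, -0.99 with the fibroblast covariate, -1.31 in limma voom and -0.73 without tamoxifen replicates 4 and 6, and ran from -0.38 to 0.30 with 1 library left out. The signs of Gpx1, Gpx2, Gpx4 and Gpx7 held in all alternatives that gave a value, with Gpx7 at 0.025 under the fibroblast covariate. Gpx7 has no value under the filter of 5 CPM in 4 libraries. The cause of these differences was not tested. No paired analysis was possible because the labels give no pairing of libraries between the groups.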
